A study of Mus musculus with 34 samples.

Results

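The genes described here are the pore-forming and partner subunits of potassium channels, taken as every entry of the deposited count table whose symbol is Kcn followed by letters and a number. The table held 29876 gene entries, of which 92 matched; 1 match was set aside, and 91 members remained. By known role or family they comprised 29 voltage-gated pore subunits, 10 silent subunits that assemble only with other voltage-gated subunits, and 11 auxiliary subunits. The rest were 12 members of the calcium- and sodium-activated channel families with their beta subunits, here called ion-activated, 15 inward rectifiers and 14 tandem-pore channels.

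The libraries came from mouse cell lines that differ in copies of 7qF3, which corresponds to the human 16p11.2 region. The strain label was C57BL/6N and the genotype labels were 129Sv +/+ for control, df/+ for the heterozygous deletion and df/dp for a duplication on 1 chromosome with a deletion on the other. Each genotype was sampled as embryonic stem cells (ESCs: 3 control, 3 deletion, 3 duplication-deletion libraries), as neural progenitor cells at day 5 (NPCs: 5, 3 and 3) and as immature neurons of the midbrain dopaminergic protocol at day 16 (4, 2 and 2). The day 5 and day 16 cells passed through an epiblast stem cell stage, and the labels do not say whether replicates of a group were separate cultures or clones. The p-values therefore measure only the spread between these 28 libraries, which may be technical.

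Potassium channels set the resting potential and end each action potential. Voltage-gated channels open on depolarization, calcium-activated channels follow calcium entry, inward rectifiers pass current near rest, and tandem-pore channels carry the background leak. In midbrain dopaminergic neurons the A-type channel of Kcnd3, the small-conductance channel of Kcnn3 and the G protein-gated channel of Kcnj6 are known to shape pacemaker firing, while astrocytes are known for inward rectifiers built from Kcnj10 and Kcnj16.

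Values are CPM, counts scaled to a common TMM-adjusted library size, given as mean ± SD over libraries. Library depth ran from 5578151 to 78814037 counts. The summed level of 5 genes of the 7qF3 interval, Mapk3, Kctd13, Taok2, Maz and Ppp4c, checks the labels: it was 73.7 to 83.5 CPM in deletion ESCs against 146 to 198 in control, 91.2 to 148 against 181 to 219 in NPCs, and 98.8 to 126 against 209 to 285 in neurons, with no overlap between deletion and control at any stage. The 3 duplication-deletion NPC libraries carry a description that names a deletion only, while their title and genotype name both alleles. Their sum was 158 CPM in replicate 2, below the control range and above every deletion library. It was 220 and 230 CPM in replicates 4 and 5, above the control range. Stage markers also followed the labels in control cells. The 6 stem cell markers summed to 959 to 1548 CPM in ESCs and to at most 5.24 CPM later, and the 8 dopaminergic markers, all at 1 CPM or more in neurons, summed to 283 to 562 CPM there, 17.6 to 122 in NPCs and 7.61 to 11.1 in ESCs. Markers of other cells were also found: 7 of 8 astrocyte markers were at 1 CPM or more in control neurons and their sum was 721 to 872 CPM. Pericyte and smooth muscle markers summed to 210 to 1678 CPM in control NPCs, with Rgs5 and Cspg4 under 1 CPM. In such bulk samples fewer cells of a type and less RNA per cell cannot be told apart. Reads were counted without a stated use of strand, and 9 members overlap another protein-coding gene, among them Kcnip1 with Kcnmb1 and Kcnj13 with Gigyf2, so their counts are uncertain.

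Of the 91 members, 74 reached 1 CPM in at least 1 library and 2 stayed under 3 counts in every library. In control cells a mean of at least 1 CPM was reached by 26 members in ESCs, 33 in NPCs and 61 in neurons. No count at all was found for 9, 10 and 1 members at these stages. The summed level of all members was 121 ± 12.8 CPM (n = 3) in control ESCs, 164 ± 27.7 CPM (n = 5) in NPCs and 687 ± 76.9 CPM (n = 4) in neurons. The classes did not rise alike: the voltage-gated sum went from 22.3 ± 6.30 to 62.9 ± 13.1 and 365 ± 65.0 CPM, whereas the tandem-pore sum was 54.1 ± 6.39 CPM in ESCs, 13.8 ± 2.16 in NPCs and 46.0 ± 9.08 in neurons. These sums are not adjusted for gene length, so they compare stages within a class and not the classes with each other.

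**Figure D1:**
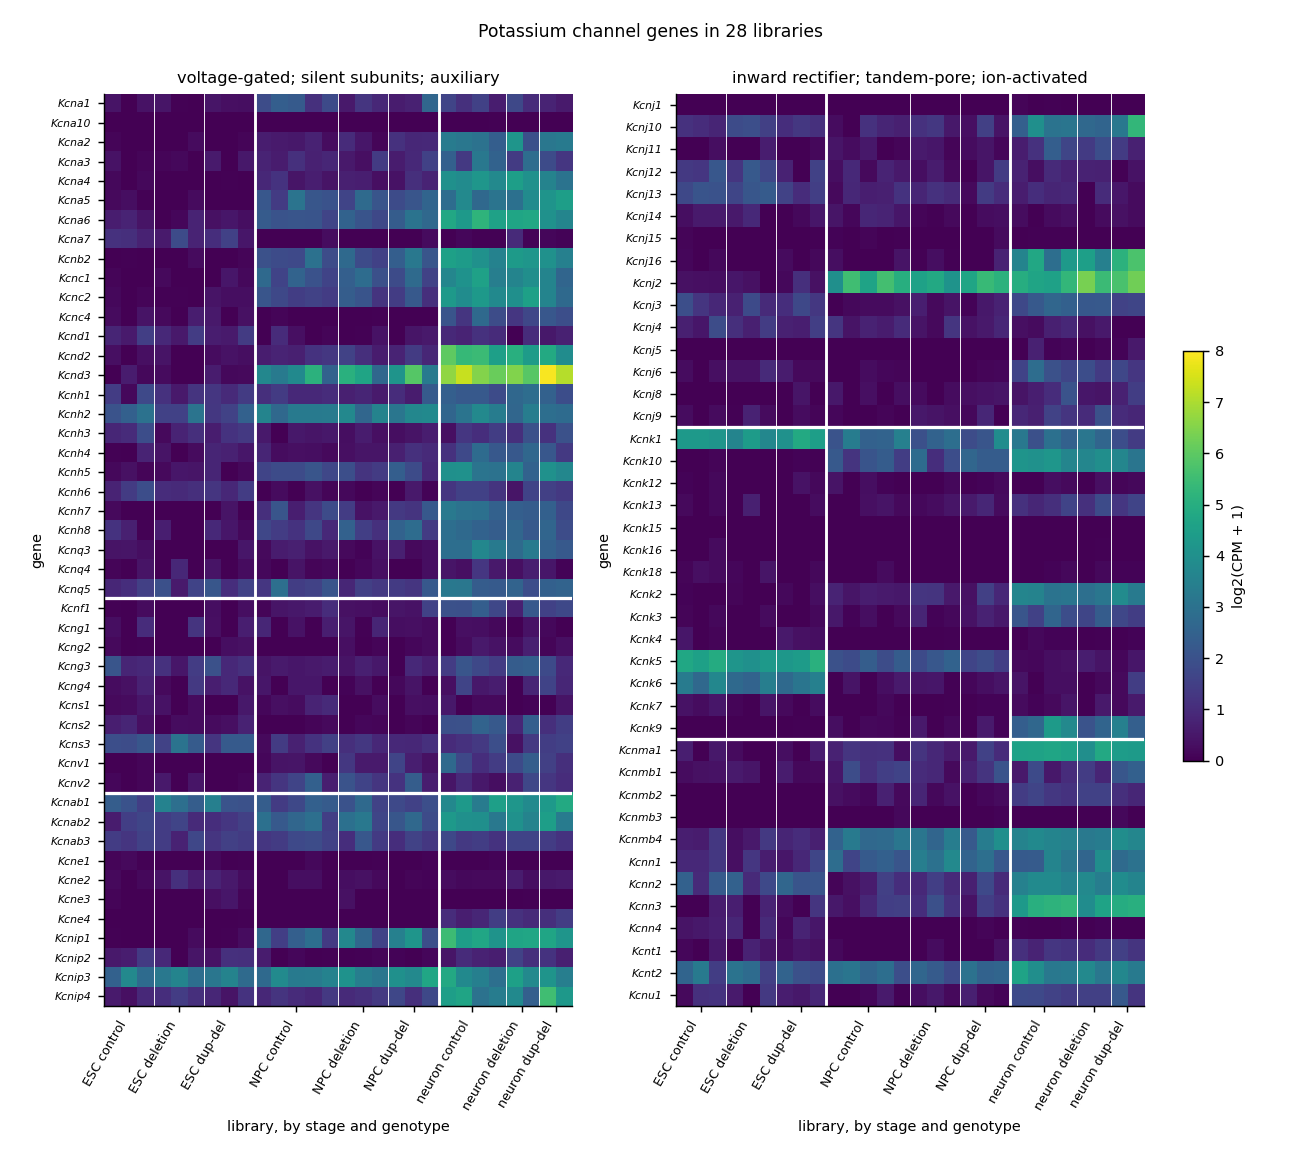
Level of 88 of the 91 members (rows, by class) in each of the 28 libraries (columns, by stage and genotype) as log2(CPM + 1), with thick lines between stages and classes. Kcnk1, Kcnk5 and Kcnk6 are bright in the 9 ESC libraries, Kcnj2 lights up in NPCs and neurons, and most voltage-gated rows brighten in the 8 neuron libraries.

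**Figure D2:**
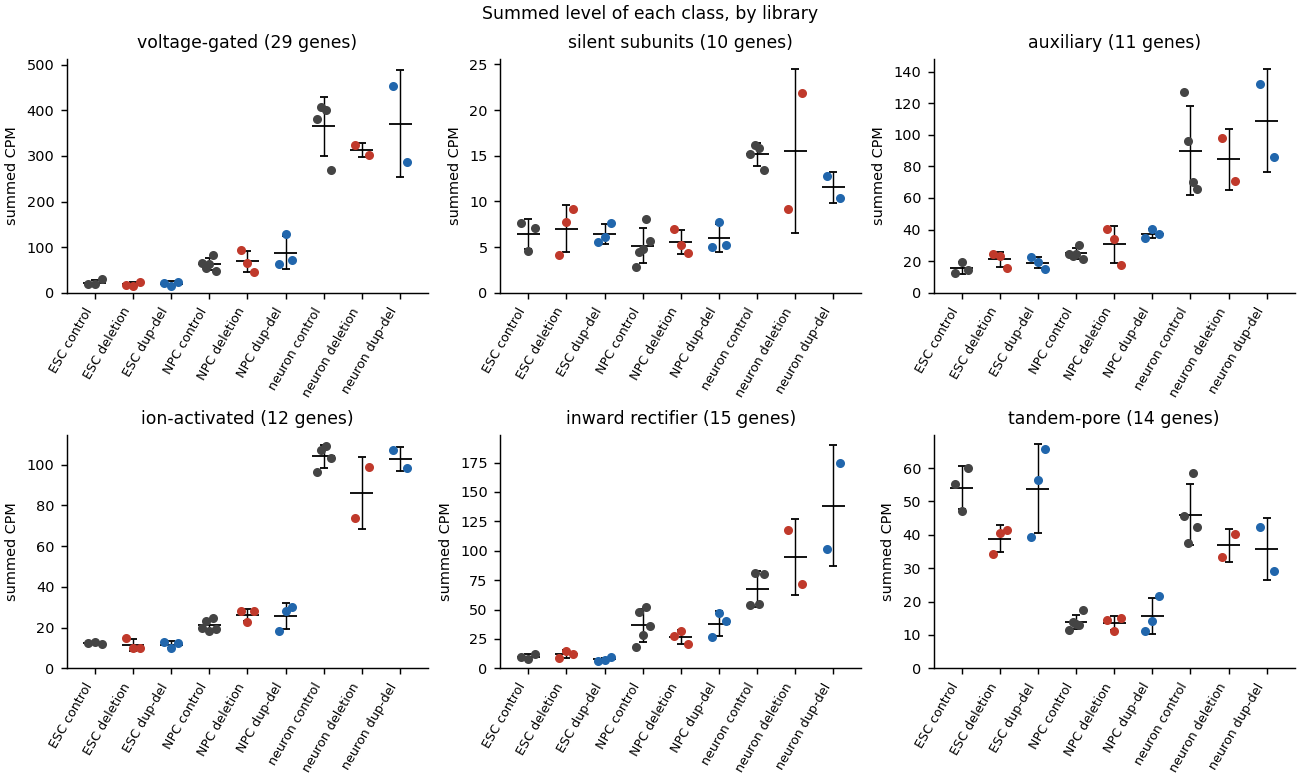
Summed CPM of each class in each library (points), with the group mean (line) and SD (bars), for 9 groups. The voltage-gated sum of every neuron library lies above every NPC library, and the tandem-pore sum is lowest in NPCs in all 3 genotypes.

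Between control ESCs and NPCs, 27 of 79 tested members rose and 12 fell (edgeR quasi-likelihood test, Benjamini-Hochberg adjusted p under 0.05 over all genes tested). Of all 18365 genes tested, 21.0% were called higher and 20.5% lower, which is given as a description and not as a test. Between control NPCs and neurons, 46 of 79 rose and 1 fell, against 23.2% and 20.5% of all genes. The median log2 fold change of the tested members was 0.42 at the earlier step and 2.39 at the later, or 2.33 with genes absent from 1 group set to their bound; over all genes it was 0.01 and 0.10. The 12 members that failed the filter on low counts reached at most 0.671 CPM in any library (Kcnj5), and a member could pass the filter through its high stage alone. Without that filter, over all 91 members, 26 rose and 13 fell at the earlier step (16.4% and 17.7% of all genes), and 47 rose and 1 fell at the later step (19.0% and 15.8%).

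Taking both steps together, 19 members rose at each step, 21 were called at the later one alone, 8 rose at the earlier one and were not called at the later, 6 fell and then rose, 5 fell and were not called later, and Kcnk5 fell at both. A further 19 members were called at neither step. A step that was not called is not shown to lack a change, and the difference between the steps was not tested. The 6 that fell and then rose were Kcng3, Kcnh6, Kcnj3, Kcnn2, Kcnn4 and Kcns2. Of these, Kcnn4 stayed near 0 in control neurons, at no more than 0.0532 CPM in any library.

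Promoter sequence was looked up for the genes whose opposite courses are described below, Kcnk5 and Kcnk1 on the falling side and Kcnd3 and Kcnd2 on the rising side. The RefSeq promoter table for GRCm38.p6 held windows for 67 of the 91 members, 92 windows in all, each 300 bases long. Shown are the 120 bases before the annotated start of each gene, 5′ to 3′ on the gene's strand, with CG dinucleotides in capitals. The stretches lie at chr14:20181783-20181902 (minus strand) for Kcnk5, chr8:125994982-125995101 (plus strand) for Kcnk1, chr3:105451770-105451889 (plus strand) for Kcnd3 and chr6:21215226-21215345 (plus strand) for Kcnd2.
Kcnk5: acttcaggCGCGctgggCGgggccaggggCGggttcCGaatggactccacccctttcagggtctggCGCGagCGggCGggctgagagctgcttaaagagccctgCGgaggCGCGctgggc
Kcnk1: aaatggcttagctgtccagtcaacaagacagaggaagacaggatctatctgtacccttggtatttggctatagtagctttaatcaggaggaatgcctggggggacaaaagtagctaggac
Kcnd3: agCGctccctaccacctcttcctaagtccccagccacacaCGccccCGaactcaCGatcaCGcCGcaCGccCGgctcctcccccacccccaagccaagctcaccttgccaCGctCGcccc
Kcnd2: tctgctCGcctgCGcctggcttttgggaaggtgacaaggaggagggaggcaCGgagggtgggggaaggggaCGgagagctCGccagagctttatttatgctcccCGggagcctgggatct
The Kcnk5 stretch holds 12 CG dinucleotides and the Kcnd3 stretch 10, while the Kcnd2 stretch holds 6 and the Kcnk1 stretch 0. Over the full window the counts were 26 for Kcnk5, 25 for Kcnd3, 26 for Kcnd2 and 10 for Kcnk1, so the falling and rising genes were not separated by this measure. Over all members the median window held 9 CG dinucleotides, against 7 over all windows of the table. The GC box letters GGGCGG, searched on both strands, were found in 47.8% of member windows and 35.7% of all windows, and the letters TATAAA in 5.43% and 13.6%. A match is a description of the letters in these windows and does not show binding. Taking each member's richest window, the median was 19 CG dinucleotides for the 34 members with a window that rose from NPCs to neurons, 10 for the 9 that fell from ESCs to NPCs, 19.5 for the 12 called at neither step and 5.5 for the 10 that were not tested. The members that rose and those called at neither step thus had nearly the same median.

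Of 10 tested tandem-pore genes, which encode the leak channels of the family, 3 rose and 3 fell from control ESCs to NPCs (21.0% and 20.5% of all genes), and 4 rose and 1 fell from NPCs to neurons (23.2% and 20.5%). The 3 that fell first were Kcnk5, Kcnk1 and Kcnk6. Kcnk5, which encodes the acid-sensitive leak channel TASK-2 (mm9 chr14:20959280-21001004), had 26.1, 22.3 and 29.3 CPM in the control ESC libraries, 2.53 to 4.08 with a median of 2.98 in the 5 NPC libraries, and 0.129, 0.102, 0.229 and 0.292 in the neuron libraries. The stages did not overlap at either step. Kcnk5 fell by 3.00 on the log2 scale (SE 0.33, edgeR adjusted p = 1.06e-05) from ESCs to NPCs and by a further 4.04 (SE 0.37, adjusted p = 2.07e-06) to neurons, and in control cells no other tested member was called lower at the later step by edgeR. Kcnk1, which encodes the weakly rectifying channel TWIK-1 (mm9 chr8:128519002-128554585), went from 18.9, 19.0 and 17.2 CPM in ESCs to 3.11 to 10.3 CPM in NPCs, a log2 change of -1.53 (SE 0.41, adjusted p = 0.00824). Kcnk1 was still at 2.91 to 8.14 CPM in neurons, overlapping the NPCs. Kcnk6, encoding the related TWIK-2, went from 8.90 ± 3.31 CPM in ESCs to 0.213 ± 0.219 CPM in NPCs (log2 change -5.46, SE 1.22, adjusted p = 0.00255) and 0.200 ± 0.144 CPM in neurons.

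The tandem-pore genes that rose from NPCs to neurons were Kcnk10, Kcnk2, Kcnk9 and Kcnk3, of which Kcnk2 and Kcnk10 are also known from astrocytes. Kcnk10, which encodes the mechanosensitive and lipid-sensitive channel TREK-2, had 2 counts in the 3 control ESC libraries together, 1.32 to 4.00 CPM in NPCs, and 16.6, 15.4, 17.6 and 11.5 CPM in neurons. From NPCs to neurons Kcnk10 rose by 2.47 on the log2 scale (SE 0.46, edgeR adjusted p = 0.000667). Against the 2 ESC counts, the NPC level of Kcnk10 was 144-fold higher, with an exact 95% interval of 39.7 to 1188 that covers counting error only. Kcnk2, encoding its relative TREK-1, rose from 0.517 ± 0.146 to 9.33 ± 2.15 CPM (log2 4.19, SE 0.48, adjusted p = 1.26e-05). The other two encode the acid-sensitive channels TASK-3 (Kcnk9) and TASK-1 (Kcnk3). Kcnk9 had 0 counts in all 3 control ESC libraries, 0 to 0.219 CPM in NPCs and 4.19, 5.33, 19.7 and 12.5 CPM in neurons, a log2 rise of 6.69 from NPCs (SE 0.85, adjusted p = 6.81e-05). The earlier call of Kcnk9, from ESCs to NPCs, was at least 3.03-fold with a floor of 3 counts over the ESC group, and it was lost without any of 6 of the 8 libraries, with adjusted p = 0.0591 to 0.103. Kcnk3 rose from 0.172 ± 0.171 to 3.25 ± 1.37 CPM (log2 4.22, SE 0.97, adjusted p = 0.00297).

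**Figure D3:**
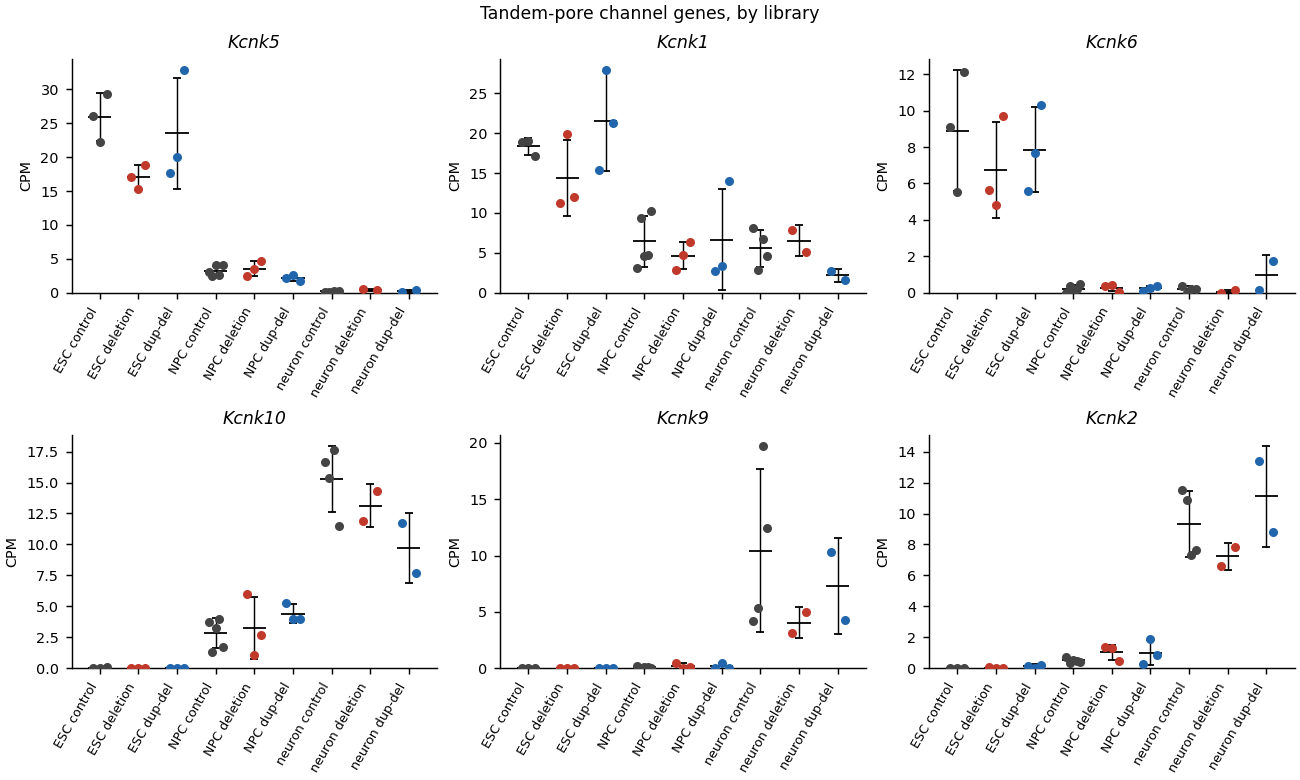
CPM of 6 tandem-pore genes in each library (points), with group mean and SD, for 9 groups. Kcnk5, Kcnk1 and Kcnk6 are highest in the ESC groups of all 3 genotypes, and Kcnk10, Kcnk9 and Kcnk2 are highest in the neuron groups.

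The same order was seen in the mutant cells, which share no library with the control comparison. Kcnk5 averaged 17.0, 3.55 and 0.450 CPM in deletion ESCs, NPCs and neurons and 23.5, 2.19 and 0.246 CPM in duplication-deletion cells. Its log2 change from ESCs to NPCs was -2.27 (SE 0.44, edgeR adjusted p = 0.00326) in deletion and -3.39 (SE 0.54, adjusted p = 0.00172) in duplication-deletion cells, and from NPCs to neurons -2.97 (SE 0.54, adjusted p = 0.00478) and -3.12 (SE 0.65, adjusted p = 0.0144). Kcnk6 also fell from ESCs to NPCs in both, and Kcnk1 fell in deletion cells (log2 -1.64, adjusted p = 0.0209) and had a log2 change of -1.71 in duplication-deletion cells (adjusted p = 0.0615).

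Among voltage-gated subunits, 13 of 28 tested rose and 2 fell from control ESCs to NPCs, and 19 rose and 0 fell from NPCs to neurons, against 21.0% and 20.5% of all genes at the earlier step and 23.2% and 20.5% at the later. Kcnd3, which encodes the A-type channel Kv4.3 (mm9 chr3:105255248-105476920), had 0, 0.525 and 0.130 CPM in ESCs. It was at 12.0, 8.75, 12.8, 34.3 and 4.71 CPM in NPCs and at 101, 160, 91.1 and 70.6 CPM in neurons, with no overlap between stages. Kcnd3 rose by 6.01 on the log2 scale at the earlier step (SE 0.89, edgeR adjusted p = 0.000125) and by 2.90 at the later (SE 0.57, adjusted p = 0.00109). The NPC library of replicate 4 stood above the other control NPC libraries in Kcnd3 and also in its dopaminergic marker sum, 122 CPM against 17.6 to 32.8 in the other 4 control NPC libraries; the part of that difference in the Kcnd3 level was not tested. Kcnd2, which encodes the related Kv4.2 (mm9 chr6:21166109-21679805), stayed low in NPCs at 0.572 to 1.47 CPM and reached 63.2, 39.6, 42.8 and 22.1 CPM in neurons, a log2 rise of 5.55 (SE 0.53, adjusted p = 2.74e-06).

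Delayed rectifier and fast-spiking genes rose too. Kcnb2 (Kv2.2) had 1 count in the 3 control ESC libraries together and 2.40 to 6.95 CPM in NPCs, and it rose from NPCs to 22.5, 20.1, 15.5 and 10.7 CPM in neurons (log2 2.33, SE 0.41, edgeR adjusted p = 0.000400). The fast Kv3 genes Kcnc1 and Kcnc2 rose at both steps, to 15.1 ± 5.83 and 16.1 ± 3.02 CPM in neurons. Kcnc4 rose at the later step, from 6 counts in all 5 NPC libraries to 3.22, 1.36, 5.65 and 2.66 CPM (log2 7.07, SE 1.21, adjusted p = 0.000364).

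In the Kv1 family, Kcna4 and Kcna6 rose at both steps, and at the later one Kcna4 went from 0.347 to 1.25 CPM in NPCs to 15.2, 13.5, 17.5 and 12.7 CPM in neurons (log2 4.45, SE 0.53, edgeR adjusted p = 1.71e-05). Kcna6 went from 2.12 to 3.92 CPM to 26.9, 19.1, 35.6 and 22.8 CPM (log2 3.08, SE 0.29, adjusted p = 2.25e-06). Kcna1 and Kcna5 rose at the earlier step and were not called at the later; Kcna5 was at 3.80 ± 2.20 CPM in NPCs and 7.94 ± 3.27 in neurons, and the later change had adjusted p = 0.0774. Kcna7 fell from 1.01 ± 0.274 CPM in ESCs to 0.0386 ± 0.0863 in NPCs (log2 -5.01, SE 1.56, adjusted p = 0.0194), and without ESC control replicate 1 this had adjusted p = 0.0597.

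The M-current, a slow potassium current that restrains repetitive firing, is carried by Kcnq channels. Neither Kcnq3 nor Kcnq5 was called from control ESCs to NPCs. From NPCs to neurons, Kcnq3 rose from 0.414 ± 0.179 to 8.37 ± 2.64 CPM (log2 4.37, SE 0.47, edgeR adjusted p = 7.82e-06). Kcnq5 was at 2.97 ± 2.12 and 6.01 ± 2.40 CPM and its libraries overlapped (log2 1.05, SE 0.50, adjusted p = 0.106); without NPC control replicate 2 it was called (log2 1.56), and DESeq2 called it with adjusted p = 0.0485. The ether-a-go-go gene Kcnh2, known for the repolarizing current of the heart, was at 8.64 ± 2.05 CPM in NPCs and 8.60 ± 3.19 in neurons, and Kcnh5 of the same family rose at both steps to 11.3 ± 4.72 CPM.

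Of the auxiliary subunits, 2 of 9 tested rose and 0 fell at the earlier step, and 5 rose and 0 fell at the later. All genes gave 21.0% higher and 20.5% lower at the earlier step, close to the 22.2% of these subunits that rose, and 23.2% and 20.5% at the later. Kcnip1, a calcium-binding partner of Kv4 channels, went from 1 count in the 3 control ESC libraries to 1.58 to 6.46 CPM in NPCs and 43.5, 21.3, 25.8 and 16.4 CPM in neurons (later log2 rise 2.80, SE 0.45, edgeR adjusted p = 0.000224). Kcnip4, another Kv4 partner, rose from 0.807 to 1.51 CPM in NPCs to 21.4, 24.4, 7.15 and 9.34 CPM in neurons (log2 3.87, SE 0.47, adjusted p = 2.00e-05). Kcnip3, also known as the transcriptional repressor DREAM, was at 7.67 ± 4.24, 9.46 ± 2.79 and 14.2 ± 9.08 CPM at the 3 stages with overlapping libraries, and neither step was called. Of the beta subunits that bind Kv1 channels, Kcnab1 rose at the later step from 3.31 ± 1.27 to 15.4 ± 5.81 CPM and Kcnab2 at both, from 1.49 ± 0.864 to 4.82 ± 2.10 and 14.4 ± 4.59 CPM, although without ESC control replicate 1 the earlier call of Kcnab2 had adjusted p = 0.0780. Kcne4, a small single-pass partner, had 0 counts in all 8 control ESC and NPC libraries and 1.01, 0.590, 0.810 and 1.75 CPM in neurons, at least 96.1-fold higher with a floor of 3 counts over the NPC group.

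The silent subunits, which do not form channels alone, had low levels, with a summed 6.45 ± 1.62, 5.15 ± 1.94 and 15.1 ± 1.21 CPM at the 3 stages. From NPCs to neurons 4 of 9 tested rose, Kcnf1, Kcng3, Kcns2 and Kcnv1, and 0 fell, against 23.2% and 20.5% of all genes. Kcns2, a partner of Kv2 channels, had 0.594, 0.758 and 0.261 CPM in ESCs, 0 to 0.154 CPM in NPCs and 2.90, 2.97, 4.89 and 3.66 CPM in neurons, falling by 3.79 (SE 1.06, edgeR adjusted p = 0.0108) and then rising by 6.54 (SE 1.09, adjusted p = 0.000300) on the log2 scale. Kcnv2 rose to 1.85 ± 1.59 CPM in NPCs and was at 0.490 ± 0.295 CPM in neurons, a later change that was not called (log2 -1.88, SE 0.83, adjusted p = 0.0823). The fall of Kcng3 from ESCs to NPCs (log2 -1.94) rested on ESC control replicate 1, without which it was -0.93 with adjusted p = 0.264.

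Among ion-activated channels 5 of 11 tested rose and 2 fell at the earlier step, and 8 rose and 0 fell at the later, against 21.0% and 20.5% and then 23.2% and 20.5% of all genes. Kcnma1, the large-conductance BK channel opened by calcium and voltage, was at 0 to 0.594 CPM in ESCs, 0.232 to 1.35 in NPCs and 22.7, 23.4, 25.0 and 23.0 CPM in neurons (later log2 rise 4.68, SE 0.63, edgeR adjusted p = 5.37e-05). Its beta subunit Kcnmb4, the main neuronal form, rose earlier, from 0.865 ± 0.531 to 6.54 ± 1.76 CPM in NPCs (log2 2.93, SE 0.42, adjusted p = 0.000100), and was at 11.4 ± 1.04 CPM in neurons (adjusted p = 0.0560). The smooth muscle form Kcnmb1 rose from 0.267 ± 0.0530 to 1.61 ± 0.851 CPM, with 0.390, 2.62, 1.21, 1.81 and 2.05 CPM in the NPC libraries, a call lost without any 1 of the 3 ESC control libraries (adjusted p = 0.0579 to 0.0868). The pericyte and smooth muscle marker sum in the same 5 libraries was 210, 1344, 544, 363 and 1678 CPM, against 35.8 to 116 in ESCs. Of that list, Rgs5 was at 0 and Myh11 and Cspg4 under 1 CPM in ESCs, and Rgs5 and Cspg4 were under 1 CPM in NPCs. The cardiac and skeletal muscle sum was 19.9, 113, 43.0, 21.2 and 107 CPM in these NPC libraries, with Tnnt2, Myl7 and Myog under 1 CPM. Which cells these were, and their part in the Kcnmb1 level, was not tested.

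The small-conductance channels, which carry the afterhyperpolarization that follows a spike, took separate courses. Kcnn3 (mm9 chr3:89324086-89476416) was at 0, 0 and 0.521 CPM in ESCs, 0.260 to 1.85 in NPCs and 19.0, 32.1, 35.1 and 37.3 CPM in neurons, with a later log2 rise of 4.95 (SE 0.78, edgeR adjusted p = 0.000191). Its earlier call had adjusted p = 0.0422 and was lost in 8 of 12 fits that left out 1 library and without the filter (adjusted p = 0.0544). Kcnn2 fell from 3.16 ± 1.97 to 0.763 ± 0.716 CPM and then rose to 10.5, 13.1, 13.2 and 10.8 CPM (later log2 4.01, SE 0.73, adjusted p = 0.000577); the fall of Kcnn2 was lost without ESC control replicate 1 or 3 or NPC control replicate 2 or 3, with adjusted p = 0.0659 to 0.135. Kcnn1 rose at the earlier step from 1.06 ± 0.321 to 4.00 ± 1.55 CPM. Kcnn4, the form of non-excitable cells, was at 0.460 ± 0.138 CPM in ESCs and had 0 counts in the 5 NPC libraries, at least 42.5-fold lower. Its call at the later step rested on 2, 0, 1 and 4 counts in the control neuron libraries, at most 0.0532 CPM. Of the sodium-activated channels, Kcnt1 rose at the later step to 1.14 ± 0.278 CPM and Kcnt2 from 5.72 ± 1.87 to 13.7 ± 7.29 CPM.

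Of 12 tested inward rectifiers, 2 rose and 3 fell from control ESCs to NPCs (21.0% and 20.5% of all genes), and 6 rose and 0 fell from NPCs to neurons (23.2% and 20.5%). Kcnj4 and Kcnj14 were called at neither step. Kcnj2, the classical strong rectifier Kir2.1 (mm9 chr11:110927478-110938139), had 0.284, 0.262 and 0.217 CPM in control ESCs, 14.8, 45.3, 23.9, 48.2 and 31.4 CPM in NPCs, and 30.7, 24.7, 23.1 and 38.4 CPM in neurons. It rose by 6.96 on the log2 scale at the earlier step (SE 0.50, edgeR adjusted p = 3.48e-07), and NPCs and neurons overlapped. Kcnj12 and Kcnj13, also inward rectifier genes, fell at that step to 0.499 ± 0.324 and 0.697 ± 0.395 CPM. The call of Kcnj12 was lost without ESC control replicate 3 or NPC control replicate 1, 3 or 5 (edgeR adjusted p = 0.0555 to 0.169). The G protein-gated genes Kcnj3, Kcnj6 and Kcnj9 all rose from NPCs to neurons. Kcnj6 was at 0 to 0.199 CPM in NPCs and 2.04, 6.20, 2.96 and 2.19 CPM in neurons (log2 5.49, SE 1.16, adjusted p = 0.00171), and Kcnj3 rose by 4.76 (SE 0.71, adjusted p = 0.000122) after falling by 3.49 from ESCs. Kcnj11, the pore of the ATP-sensitive channel, rose to 0.559, 1.22, 4.24 and 2.18 CPM (log2 3.23, SE 1.07, adjusted p = 0.0248), a call lost without neuron control replicate 3 (adjusted p = 0.109) or NPC control replicate 5 (adjusted p = 0.0542).

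The glial rectifier genes Kcnj10 and Kcnj16 rose at the later step as well. Kcnj16 (mm9 chr11:110829347-110889281, beside Kcnj2) was at 0, 0, 0, 0.219 and 0.347 CPM in control NPCs and 11.3, 27.0, 6.39 and 18.5 CPM in neurons, a log2 rise of 7.28 (SE 1.11, edgeR adjusted p = 0.000139). Kcnj10 rose from 0.564 ± 0.482 CPM to 4.34, 14.7, 7.25 and 7.56 CPM (log2 3.94, SE 0.84, adjusted p = 0.00190). Over the same step the sum of the 8 astrocyte markers went from 89.5 to 263 CPM in NPCs to 721 to 872 CPM in neurons, with no marker at 0 and S100b alone under 1 CPM in neurons; the part of astrocytes in these levels was not tested.

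Sets of channels known from particular cells were also counted. Of 9 genes known in midbrain dopaminergic neurons, among them Kcnj6, Kcnd3 and Kcnn3, 8 rose from control NPCs to neurons, 0 fell and Kcnip3 was not called, against 23.2% higher and 20.5% lower over all genes, with a median log2 change of 4.22 against 0.10 over all genes. Of 5 genes known in astrocytes, Kcnj10, Kcnj16, Kcnk2 and Kcnk10 rose and Kcnk1 was not called. The neuronal list of 8 markers, 7 of them in the table, went from 313 to 590 CPM in NPCs to 1003 to 1645 CPM in neurons, and the dopaminergic sum from 17.6 to 122 to 283 to 562 CPM; their part in these rises was not tested.

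Genes that work with potassium channels were counted beside them. Of 16 named partners 13 were tested, and 8 rose and 0 fell from control NPCs to neurons, where 23.2% of all genes were higher and 20.5% lower. They included Dpp6 and Dpp10, which join Kv4 channels, and Abcc8, the sulfonylurea receptor of the ATP-sensitive channel. Of 18 voltage-gated calcium channel genes 15 rose, of 11 tested sodium channel genes 6 rose, and all 4 HCN genes, which carry the pacemaker cation current, rose, with 0 falling in each of these lists, beside the same 23.2% and 20.5% of all genes. Of 12 potassium pump and cotransporter genes 6 rose, including Slc12a5, the neuronal chloride extruder, and 3 fell, Atp1b3, Slc12a2 and Slc12a7. Over all genes 23.2% were higher and 20.5% lower, the latter near the share of this list that fell.

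In deletion cells 22 of 78 tested members rose and 7 fell from ESCs to NPCs, against 16.7% and 13.2% of all genes, and 27 rose and 1 fell from NPCs to neurons, against 10.5% and 9.39%. In duplication-deletion cells 21 of 80 rose and 5 fell at the earlier step, against 17.5% and 14.2%, and 19 rose and 2 fell at the later, against 8.04% and 6.95%. These fits had 2 neuron libraries each, and single libraries moved the later counts, over all genes as well as members. Without NPC replicate 3 the 28 calls in deletion cells became 12, and genes called went from 1915 higher and 1708 lower to 1070 and 1088. Without NPC replicate 2 the 21 calls in duplication-deletion cells became 9 higher and 1 lower, and genes went from 1492 and 1291 to 809 and 778. Leaving out a neuron library left 1 in its group, assumed to vary like the others. The median member log2 change was then 2.37 or 1.95 in deletion cells (2.34 with both). In duplication-deletion cells it was 1.43 or 1.59 (1.79 with both). Counts from fits of unequal size are not compared with the control counts.

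Directions in the mutant libraries were those of control for nearly every member called there. All 46 members that rose from NPCs to neurons in control had the same sign in deletion cells, where 25 of them were called, which is 54.3% of the control calls and 92.6% of the 27 deletion calls. In duplication-deletion cells 44 of the 46 had the same sign and 18 were called, 39.1% of the control calls and 94.7% of the 19 made there. The exceptions were Kcnh8 (log2 -0.09) and Kcnn4 (log2 -1.31), of which neither was called, and 0 members were called in the opposite direction in either genotype. From ESCs to NPCs the 27 risers and 12 fallers of control kept their sign in both mutants, 19 and 17 of the risers and 6 and 2 of the fallers being called. Such agreement was not counted over all genes, so it is not shown to be particular to these members.

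**Figure D4:**
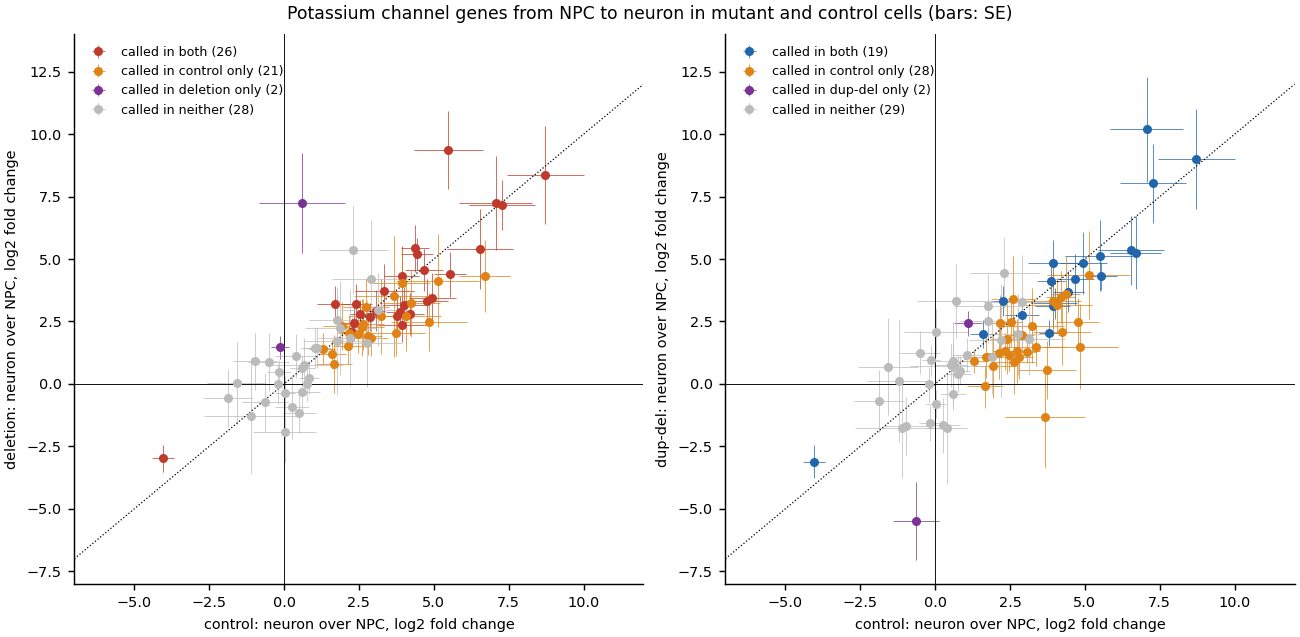
Log2 fold change from NPC to neuron in control (x axis) against deletion (left) or duplication-deletion (right) cells (y axis) for each member tested in both, with SE bars and a dotted line of equal change. The libraries on the axes are not shared, and nearly all members called in control lie above 0 on both axes, with Kcnk5 at the lower left.

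Genotypes were then compared within each stage. In ESCs 0 of 52 tested members were called between deletion, duplication-deletion and control in any pair, against 0.0% of all genes. With the replicate number as a block 0 members were called too. Over all genes the block called 0 higher and 9 lower for deletion and 3 and 4 for duplication-deletion against control. Between the mutants it called 3 and 10. In NPCs 0 of 68 were called, against at most 0.00596% of all genes in either direction for deletion and for duplication-deletion against control and 0.00596% higher and 0.0179% lower for deletion against duplication-deletion. In neurons 0 of 79 were called, against 0.0% for deletion and 0.0112% higher and 0.0279% lower for duplication-deletion against control, and 0.0279% higher and 0.00558% lower between the mutants. DESeq2 also called 0 members in each of the 9 pairs, and so did the authors' deposited table in its 6 comparisons with control, where the lowest adjusted p of a member was 0.0727 (Kcnj2, duplication-deletion against control neurons). That deposited table held only part of the 91 members. For deletion and duplication-deletion it held 24 and 23 in ESCs, 33 and 37 in NPCs and 66 and 67 in neurons. Over all genes DESeq2 called at most 113 higher and 153 lower, both for deletion against duplication-deletion neurons. The authors' values called 3 to 183 genes in a comparison. With 0 calls the fit sets no upper limit on a change, and with 2 mutant neuron libraries a group the spread is poorly known.

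At an unadjusted p under 0.05, edgeR counted 2, 0 and 1 members in ESCs for deletion against control, duplication-deletion against control and deletion against duplication-deletion, beside 1.26%, 0.31% and 0.996% of all genes. Same-numbered ESC libraries correlated, and this fit leaves that pairing out. With the replicate number as a block, 3 members passed in each ESC pair, beside 1842, 709 and 1051 of 16470 genes. In NPCs edgeR without a block counted 2, 4 and 1 members in the same order, beside 3.56%, 2.66% and 4.01%. In neurons it counted 1, 12 and 8 of 79, beside 3.63%, 7.22% and 8.85%. With the block, 6 members passed in NPCs for each mutant against control, beside 998 and 696 of 16783 genes. In neurons 6 and 11 passed for deletion and duplication-deletion against control, beside 1127 and 1290 of 17931 genes. DESeq2 counted 3, 1 and 3 in ESCs, 6, 6 and 2 in NPCs and 4, 15 and 11 in neurons. Over all genes DESeq2 counted 319, 94 and 303 in ESCs, 857, 652 and 908 in NPCs and 915, 1821 and 2173 in neurons. In neurons edgeR without a block counted 651, 1295 and 1586 genes. There DESeq2 gave an adjusted p to 18467, 18467 and 17194 genes, 80, 80 and 77 of them members. Its unadjusted counts were taken over every gene with a p-value, with or without an adjusted one, so these are not their denominators. The genes named next did not pass the adjusted threshold, so their values are given as measured, with p-values from the fit without a block. Kcnj2 had 30.7, 24.7, 23.1 and 38.4 CPM in control neurons, 80.3 and 43.0 in deletion neurons and 51.2 and 75.2 in duplication-deletion neurons. All 4 mutant libraries lay above the 4 control libraries, with log2 differences from control of 1.09 (SE 0.33, unadjusted p = 0.00862, edgeR adjusted p = 1.00) and 1.10 (SE 0.33, unadjusted p = 0.00829, adjusted p = 0.636). Its neighbour Kcnj16 was at 34.1 and 52.6 CPM in duplication-deletion neurons, above the control range of 6.39 to 27.0, and at 21.7 and 10.1 in deletion neurons, within it. Kcnj4, encoding the rectifier Kir2.3, had 1 count in both duplication-deletion neuron libraries together and 121 in the 4 control libraries, a level 60.7-fold lower with an exact 95% interval of 10.7 to 2415 for counting error (edgeR adjusted p = 0.633). Kcnj4 was low throughout, with 0.183 to 0.851 CPM in control neurons.

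Voltage-gated members of the 12 lay below control in duplication-deletion neurons, except Kcna5. Kcna6 was at 15.5 and 11.4 CPM there against 19.1 to 35.6 in control and 25.0 and 26.9 in deletion neurons (log2 -0.96, SE 0.32, edgeR adjusted p = 0.647). Kcna4, Kcnc2, Kcnh7 and Kcnq3 also lay below every control library, as did the tandem-pore gene Kcnk1, and Kcna5 was above, at 16.6 and 21.6 CPM against 5.51 to 12.7. Kcnj10 was at 8.20 and 38.7 CPM in duplication-deletion neurons, the higher value in replicate 4, and overlapped control; Kcnmb1 was at 3.44 and 4.44 CPM against 0.440 to 2.46. Beside these, the astrocyte marker sum was 721 to 872 CPM in control, 482 to 1006 in deletion and 805 to 862 in duplication-deletion neurons. The dopaminergic sum was 283 to 562, 164 to 179 and 403 to 1086 CPM, the neuronal sum 1003 to 1645, 1027 to 1116 and 804 to 1498 CPM, and the endothelial sum 4.01 to 18.4, 4.25 to 5.15 and 26.8 to 52.0 CPM, with Cldn5 at 0 in both mutants. The sum of 8 oligodendrocyte lineage markers was 82.1 to 109 CPM in control, 51.9 to 73.5 in deletion and 93.6 and 190 in duplication-deletion neurons, the 190 in replicate 4, where Kcnj10 was also high. Of that 190, Pdgfra made up 172 CPM, and Mbp and Olig2 were at 10.1 and 1.03 CPM, below every control library. Pericyte and smooth muscle markers summed to 37.2 to 87.6, 32.9 to 46.6 and 44.9 to 97.8 CPM. Endoderm markers summed to 33.5 to 120, 48.3 to 88.8 and 144 in both duplication-deletion libraries, with Afp at 0. Of the endoderm list, Foxa1 alone was at 1 CPM or more in each neuron genotype, and Sox17 was also at 0 in duplication-deletion neurons. The part of all these markers in the differences between genotypes was not tested.

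**Figure D5:**
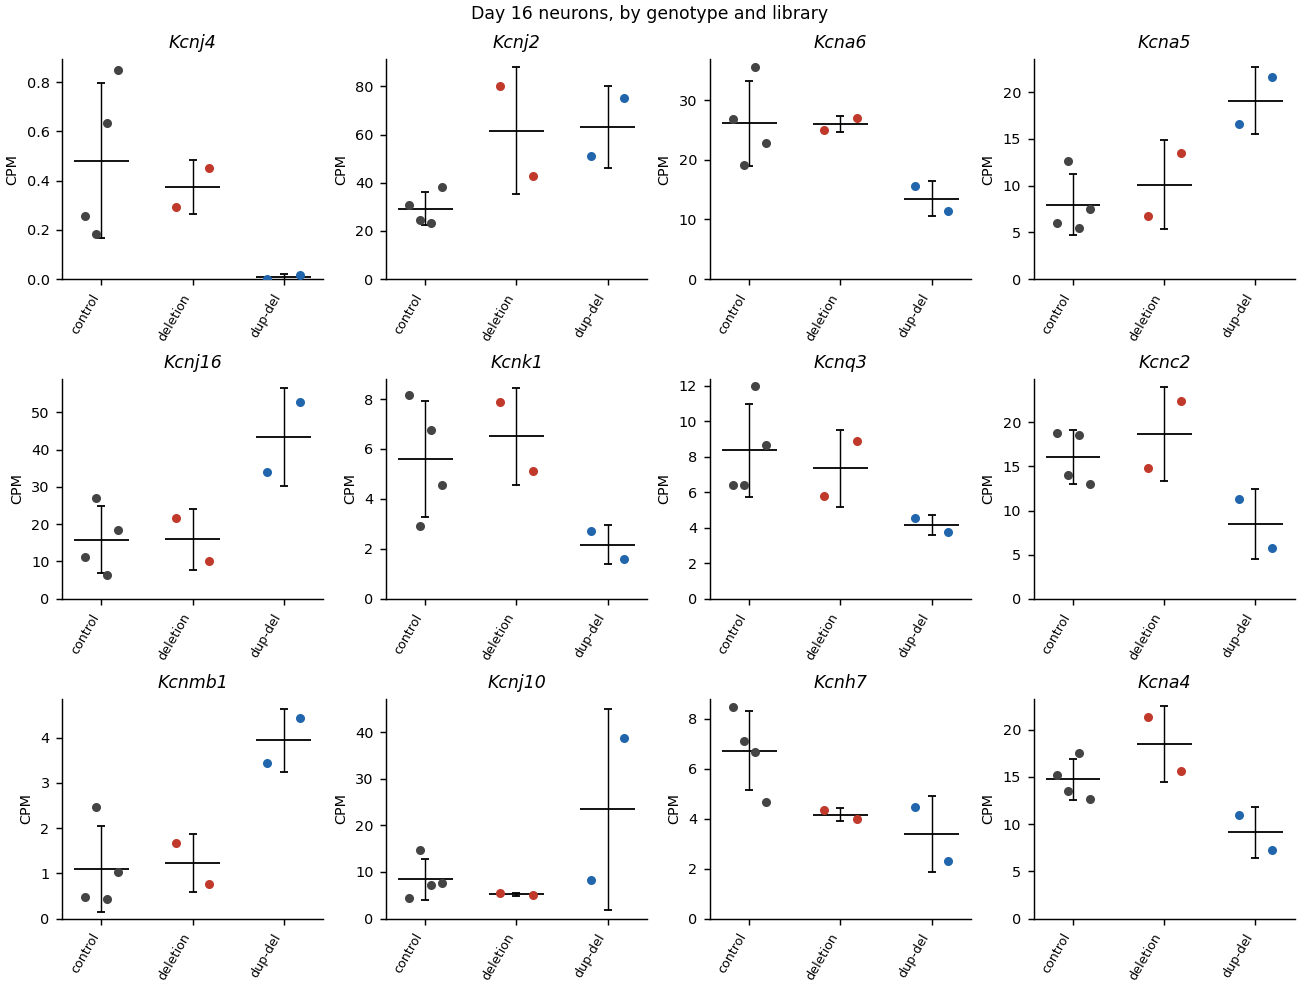
CPM in each day 16 neuron library (points) with group mean and SD, for 12 members. These had an unadjusted p under 0.05 between duplication-deletion and control neurons in the fit without a block, and none passed the adjusted threshold. For Kcnj2 all 4 mutant libraries lie above the 4 control libraries, and for Kcnj4 both duplication-deletion libraries are near 0.

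In NPCs, in the fit without the block, the lowest p of a member belonged to Kcnn1, a small-conductance channel gene. Kcnn1 was at 9.67, 6.92 and 12.6 CPM in deletion cells against 2.13 to 6.30 in control and 3.47 to 6.56 in duplication-deletion cells (log2 1.28 over control, SE 0.37, unadjusted p = 0.00400, edgeR adjusted p = 0.680). In ESCs, in the fit without the block, the lowest belonged to Kcnj10, at 2.53, 2.77 and 1.87 CPM in deletion cells against 0.782 to 1.19 in control (log2 1.32, SE 0.49, unadjusted p = 0.0219, adjusted p = 1.00). Whether a genotype difference itself changed between stages was tested in a joint fit of all 28 libraries. Of 83 members tested by edgeR 0 were called in each of 4 such contrasts, against at most 0.005% of all genes in either direction. DESeq2 called 0 of 86 and 91 members for deletion and 0 of 79 and 86 for duplication-deletion at the earlier and later step. Over all genes it called 16 higher and 21 lower, then 3 and 5, for deletion. For duplication-deletion it called 18 and 13, then 7 and 26. At an unadjusted p under 0.05 edgeR counted 9 and 2 for deletion and 5 and 5 for duplication-deletion at the earlier and later step, beside 3.22%, 3.1%, 2.67% and 5.02% of all genes. DESeq2 counted 5, 2, 7 and 5 members, beside 689, 715, 575 and 1151 over all genes.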

How the data were processed

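Stranded total RNA was sequenced as paired 75-base reads. The deposited table holds expected counts per gene for 28 libraries; the submitters' processing notes name STAR 2.6.0c, RSEM 1.3.0, DESeq2 1.22.2 and mm9, with no roles. A second table, deposited by the authors, gives log2 fold changes, p-values, a mean signal and a test score for 6 comparisons with control, with its filter not given in the sources used here. The 92 spike-in entries were left out of 29968, and 6392 entries with values that were not whole were rounded.

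Levels are CPM with TMM factors from all libraries. Tests were edgeR 4.0.16 quasi-likelihood fits after filterByExpr (R 4.3.3), per stage for genotypes, per genotype for stages and jointly for interactions, with p-values adjusted by Benjamini-Hochberg over all genes and a threshold of 0.05; DESeq2 1.42.0 was an alternative. The fits were tested on simulated data. In ESCs the replicate numbers paired the samples (9 of 9 same-numbered pairs correlated, 0.218 to 0.679), and the block called 0 members there too. The ESC values given for genotypes are from fits without the block, except where the block is named. The members, lists and tests were chosen with earlier results of these data known. Members were named, per class and direction, as the up to 4 largest called changes with at least 1 CPM, the members of smallest p between genotypes, and those of the dopaminergic, astrocyte and M-current lists; the level rule needs TPM and was not applied, and other members named were chosen after their values were seen. Hi-C samples (6) were not analysed here, and 1 symbol match and some members are not reported here by name.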

Additional observations from a re-analysis of the deposited data

Results flagged for a closer look

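In groups of 4 or 5 libraries, 78 sets of values of named members were examined for 1 library standing far from the rest, and 2 stood out; chance alone marks about 1 in 20 such sets. In control NPCs, replicate 4 had 6.95 CPM of Kcnb2 against 2.4 to 2.94 and 34.3 CPM of Kcnd3 against 4.71 to 12.8. That NPC library also had the highest dopaminergic marker sum of its group, 122 CPM against 17.6 to 32.8, and its part in these levels was not tested.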

How the results depend on the processing

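Each result was recomputed with DESeq2, RLE size factors, no filter on low counts, the replicate number as a block, without the shallow libraries (ESC replicate 3 and NPC replicate 5) and without each library in turn. The number of members called between genotypes or in the tests of stage-dependent genotype differences stayed at 0 under each setting that could be fitted. For deletion cells from NPCs to neurons the 28 calls became 16 with the replicate block and 13 without the shallow libraries; for duplication-deletion cells, 26 calls from ESCs to NPCs became 41 with DESeq2 and 17 with the block, and 21 calls from NPCs to neurons became 33 with DESeq2. Calls over all genes also moved. In deletion cells 1915 higher and 1708 lower became 1418 and 1393 with the block and 1455 and 1518 without the shallow libraries. In duplication-deletion cells 3257 and 2645 at the earlier step became 3639 and 3593 with DESeq2 and 1963 and 1251 with the block. At the later step 1492 and 1291 became 2432 and 1860 with DESeq2. The cause was not tested. Leaving out 1 library gave 31 to 40 calls for control ESCs to NPCs, 41 to 49 for control NPCs to neurons, 19 to 29 and 10 to 27 for the 2 steps in deletion cells, and 18 to 27 and 3 to 22 in duplication-deletion cells. The counts moved by over 1.5 times in deletion cells without NPC replicate 1 (19 at the earlier step), NPC replicate 3 (12), NPC replicate 5 (13), neuron replicate 1 (10) or neuron replicate 3 (17), and in duplication-deletion cells without NPC replicate 2 (10), NPC replicate 5 (12), neuron replicate 2 (4) or neuron replicate 4 (3). Of 95 results on named members, 94 kept direction and call with DESeq2, 95 with RLE size factors and 94 without the filter. With the replicate block 83 kept both, 6 lost the call and 2 turned sign; without the shallow libraries 83 kept both, 4 lost the call, 1 gained it and 1 turned sign. The rest had no value under that setting. Calls lost with the block were, by edgeR adjusted p, Kcng3 (0.120), Kcnj12 (0.134), Kcnk9 (0.0639), Kcnmb1 (0.0976) and Kcnn3 (0.0797) from control ESCs to NPCs and Kcnj11 (0.102) from NPCs to neurons. Without the shallow libraries Kcnj12 (0.225), Kcnk9 (0.0805), Kcnmb1 (0.0887) and Kcnn2 (0.0898) lost the earlier call and Kcnj11 gained one (0.0304). Signs turned for 2 members that were not called: Kcnj16 from control ESCs to NPCs went from 0.42 to -0.62 with the block, -0.21 without ESC replicate 2, -0.32 without NPC replicate 1 and -0.26 without NPC replicate 5 (-0.32 to 0.86 over libraries left out), and Kcnk1 from control NPCs to neurons went from -0.17 to 0.094 with the block, 0.075 without the shallow libraries, 0.066 without NPC replicate 5 and 0.042 without neuron replicate 2 (-0.35 to 0.066 over libraries left out). Same-numbered libraries correlated above 0.1 in 5 of 7 pairs in NPCs, 3 of 4 in neurons, and 3 of 10, 4 of 6 and 2 of 4 across stages in control, deletion and duplication-deletion cells; every pair did so only in ESCs, so the numbers were taken as a pairing there alone. Under the block the control counts were 34 and 40. No block could be fitted between deletion and duplication-deletion in NPCs or neurons. Depth limits what can be said of the 12 members left untested in control cells.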

Other observations

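Some members were called at a step in a mutant and not in control. From NPCs to neurons, Kcnj2 rose by 1.47 on the log2 scale in deletion cells (SE 0.46, edgeR adjusted p = 0.0480) and changed by -0.14 in control, and the test of that difference gave 1.64 (SE 0.66, unadjusted p = 0.0204, adjusted p = 1.00). In duplication-deletion cells Kcna5 rose by 2.43 (SE 0.50, edgeR adjusted p = 0.0189), and Kcnj4 had 62 counts in NPCs and 1 in neurons, a ratio of 50.8 with an exact 95% interval of 8.78 to 2036; the test of the difference for Kcnj4 gave -4.85 (SE 1.51, unadjusted p = 0.00376, adjusted p = 0.962). From ESCs to NPCs, Kcna5 had the lowest unadjusted p of all members in these tests, 0.000954 for duplication-deletion against control (log2 difference 5.71, adjusted p = 1.00). None of these differences between genotypes passed the adjusted threshold.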
